A study of Mus musculus with 8 samples.

Results

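A total of 9 genes that act in early B cell development were followed in RNA-seq libraries of mouse knee cartilage: Vpreb1, Vpreb3, Igll1, Dntt, Rag1, Rag2, Il7r, Ebf1 and Pax5. They were chosen by symbol, as genes used by pro-B and pre-B cells. The rule used no measured value, but earlier results of these data were known when it was set. All 9 were found among the 50462 gene identifiers of the deposited table. The libraries came from medial knee cartilage of wild-type male C57Bl/6J mice, with 1 mouse per library. The 4 naive mice had no operation and were taken at day 0, aged 11 weeks, and the 4 DMM mice were taken at day 42, aged 17 weeks. DMM stands for destabilisation of the medial meniscus, done here in the left knee by cutting the ligament that tethers this meniscus to the tibia, under anaesthesia and with buprenorphine for pain. It models the osteoarthritis that follows joint injury. With no sham-operated mice among the samples, the operation, the drugs and the 6 weeks between the groups' ages cannot be told apart.

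B cells arise in the bone marrow from progenitors that rearrange their immunoglobulin genes. RAG1 and RAG2 form the recombinase that cuts the V, D and J segments, and terminal deoxynucleotidyl transferase, made by Dntt, adds untemplated bases at the joints in pro-B cells. A rearranged heavy chain is then tested at the surface of the pre-B cell with a surrogate light chain built from VPREB1 and lambda 5, the product of Igll1. IL7R carries the interleukin 7 signal that mouse progenitors need, and EBF1 and PAX5 are the transcription factors that specify and commit the lineage. None of these is a defining gene of cartilage, and Ebf1 is also expressed outside the B lineage, in adipocyte precursors and marrow stroma.

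The total of estimated counts lay between 12479443 and 16548002 per library and did not separate the groups (exact permutation test, two-sided p = 0.4). The labels give the tissue as cartilage and the cells as chondrocytes. All 10 genes of a cartilage list were detected, and together they held 0.582% to 1.04% of counts in naive and 0.975% to 1.5% in DMM libraries. Transcripts of other lineages were also plentiful. A neutrophil lineage list of 15 genes held 0.99% to 1.36% of counts in naive and 0.511% to 1% in DMM libraries (p = 0.0571 by a two-sided exact permutation test, where 0.0286 is the smallest value the design allows). An erythroid list of 11 genes held 1.15% to 1.9% and 0.641% to 1.34% (p = 0.0857 by the same exact permutation test).

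The genes lie at separate places in the genome, apart from the neighbours Rag1 and Rag2 and the pair Igll1 and Vpreb1 (GRCm38, GENCODE vM21). On chromosome 16, Igll1 spans chr16:16860671-16863985 and Vpreb1 spans chr16:16868403-16870843, both on the minus strand. On chromosome 2, Rag1 spans chr2:101638282-101649501 on the minus strand and Rag2 spans chr2:101624718-101632529 on the plus strand, and both overlap the minus-strand gene B230118H07Rik. Vpreb3 lies at chr10:75943057-75949657, Dntt at chr19:41029275-41059525 and Ebf1 at chr11:44617317-45008091, all on the plus strand. Il7r lies at chr15:9505788-9530176 and Pax5 at chr4:44524757-44710487, both on the minus strand. All are protein coding. Vpreb1 also overlaps Top3b on the other strand, Vpreb3 a pseudogene, and Ebf1 and Pax5 annotated antisense transcripts. Whether counting used strand was not stated, so reads of these overlapping pairs may have been mixed. Of the 31-base words in the Vpreb1 transcripts, 30.2% also occur in those of Vpreb2, its close copy, so the division of reads between them is uncertain.

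Promoter sequence was read for its match to the short motifs of the factors that act in these cells. Some of the genes are known targets of EBF1 or of the E protein E2A, which binds E-boxes. RefSeq (GRCm38.p6) gave 10 promoter windows for the 9 genes, 2 of them for Ebf1, each from 250 bases before to 50 bases after a transcript start. Both strands were searched. The EBF1 palindrome CCCNNGGG was present in 13.7% of 32851 mouse promoter windows and in 1 of the 10, that of Igll1. The E-box CAGCTG was present in 16.3% of all windows and in those of Igll1 and Rag1. The E-box CAGGTG was found in 20.2% of all windows and in those of Igll1, Rag1 and Vpreb1. TGGGAA, a core bound by Ikaros, was found in 25.6% of all windows and in those of Ebf1 and Rag1. The following stretches, 5′ to 3′ on the strand of the gene and with the motif in capitals, are a selection of the matches, shown for the EBF1 and E-box motifs in the surrogate light chain and recombinase genes.
Igll1, EBF1 motif from position -231, chr16:16864198-16864227, minus strand: tgctccacagaCCCAGGGGccctcagggac
Igll1, E-box from position -158, chr16:16864126-16864155, minus strand: ggttaagacaggCAGCTGtgagtgaaaaca
Rag1, E-box from position -128, chr2:101649643-101649672, minus strand: agagccaggtgcCAGCTGgagctggggggt
Vpreb1, E-box from position -88, chr16:16869326-16869355, minus strand: atgacgttccagCAGGTGcttcctcccaga
Vpreb2, E-box from position -232, chr16:17980321-17980350, plus strand: atgactttccagCAGGTGcttcctcccaga
Positions count back from the RefSeq transcript start. The stretch of Rag1 also holds the second E-box, CAGGTG, in lower case just before the capitals, and the 2 do not overlap. The E-box stretches of Vpreb1 and Vpreb2 were identical at 29 of 30 bases, so the shared sequence of this pair reaches into the 5′ flank. The stretch shown for Vpreb1 lies inside the longer GENCODE span of the gene, whose start differs from that in RefSeq. A match of letters is a description of the sequence and not a measured binding site.

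To ask whether early B cell transcripts differed after joint destabilisation, the 9 genes were read from a DESeq2 fit over all genes. To be called, a gene needed an adjusted p (Benjamini-Hochberg, over all tested genes) no higher than 0.05 and a difference of at least 1.5-fold. None of the 9 was called, while 13.7% of 17760 tested genes were called, 7.75% as higher and 5.92% as lower in DMM. edgeR, which called 11.3% of its tested genes, and limma-voom, which called 11.7%, also called 0 of the 9. At an unadjusted p under 0.05, DESeq2 gave 2 of the 9, Igll1 and Ebf1, against 33.0% of all tested genes. All 9 genes passed the filter on low counts and none had 3 or fewer estimated counts in any library, the lowest value being 30.7 for Vpreb1 in naive 4. The log2 fold change was above 0 for 8 of the 9, with a median of 0.43, compared with a median of -0.02 over all tested genes. The same libraries and size factors underlie all 9 estimates, so they are not separate measurements of 1 direction. In bulk tissue, more cells of a type and more RNA per cell cannot be told apart.

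**Figure D1:**
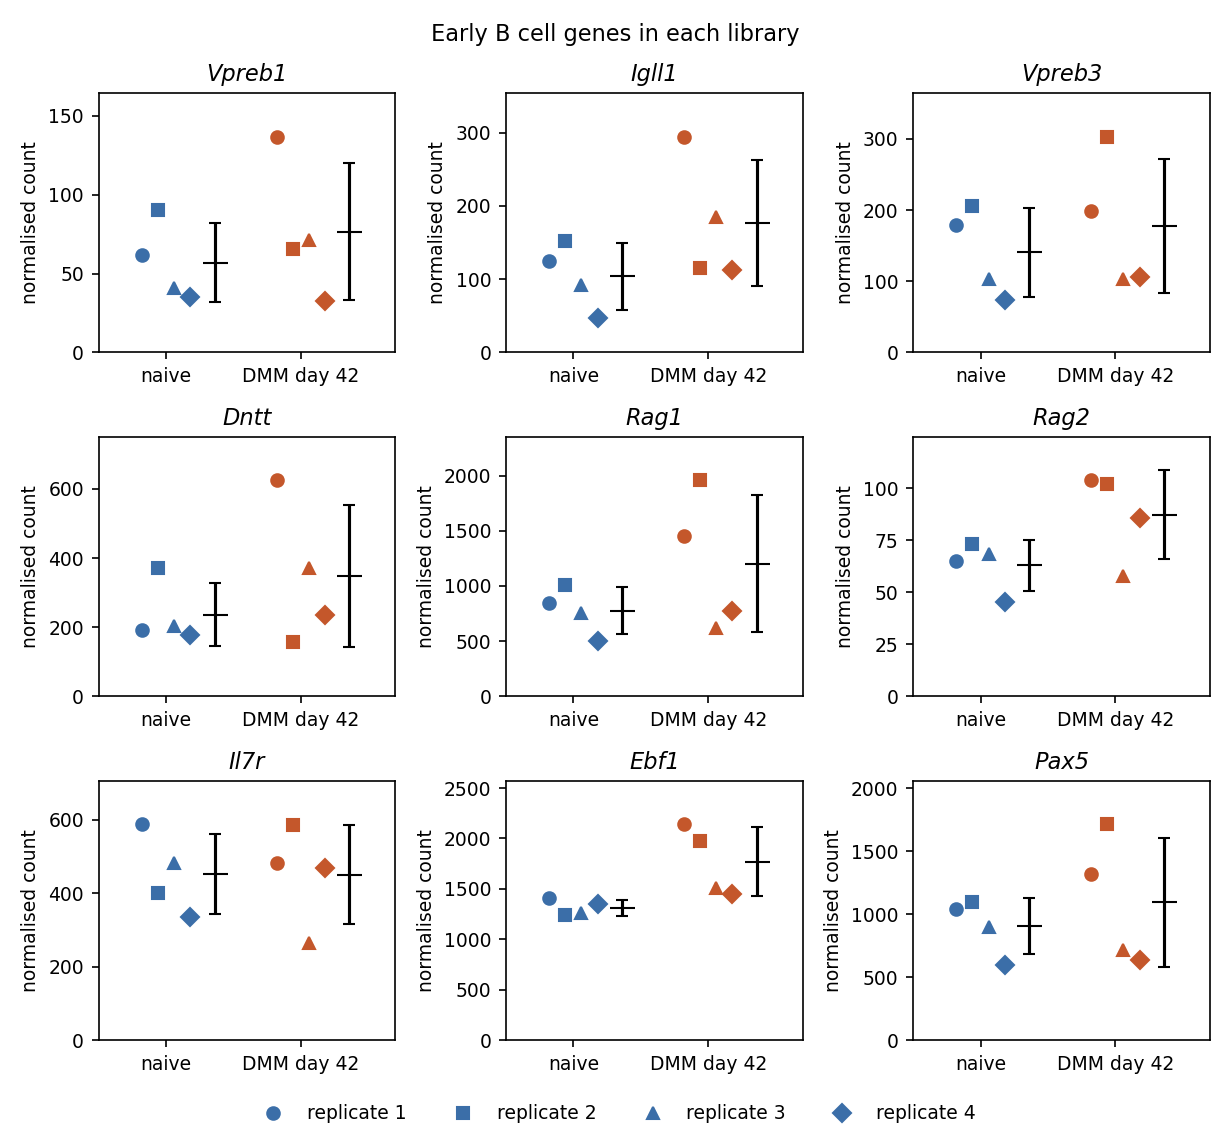
Normalised counts (y axis, linear from 0) of the 9 genes in each library, by group (x axis). Naive libraries are blue and DMM libraries orange, each replicate number has its own symbol, and the black bar gives the mean ± SD of 4 libraries. The groups overlap in every panel except that of Ebf1, where the lowest DMM library (1446.75) lies above the highest naive library (1408.8).

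The surrogate light chain genes were present in every library and varied widely between mice. Vpreb1 was measured at 61.6, 90.5, 40.7 and 35.15 normalised counts in naive libraries 1 to 4 and at 136.8, 65.6, 71.6 and 32.5 in DMM libraries 1 to 4. DMM 1 had the highest count and DMM 4 the lowest, so the DMM range enclosed the naive range. The log2 fold change of Vpreb1 was 0.43 (SE 0.41, DESeq2 adjusted p = 0.513), with a 95% interval from -0.38 to 1.25. Without DMM 1 it was -0.0047.

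Igll1, which encodes lambda 5, had the largest estimated change of the 9. Its normalised counts were 124.9, 151.7, 92.0 and 46.5 in naive libraries and 294.4, 115.0, 185.2 and 111.9 in DMM libraries. DMM 1 and DMM 3 lay above all naive libraries, whereas DMM 2 and DMM 4 lay within the naive range. Mean counts were 103.8 ± 45.3 and 176.6 ± 85.5 (SD, n = 4 each), and the log2 fold change was 0.77 (SE 0.37, DESeq2 adjusted p = 0.117). Its 95% interval, 0.05 to 1.49, was not adjusted for the number of genes. Igll1 passed both thresholds at 1.0 without naive 2 (DESeq2 adjusted p = 0.0497), in a fit that called 6.78% of tested genes as higher. It also passed at 0.94 under scaling to the total count (DESeq2 adjusted p = 0.0372), which called 11.0% as higher and moved the median of all tested genes to 0.14.

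Vpreb3 encodes a relative of VPREB1 that persists into later B cell stages. It was measured at 178.5, 206.2, 103.8 and 73.7 normalised counts in naive libraries and at 198.2, 303.15, 103.7 and 106.5 in DMM libraries. Only DMM 2 lay above the naive range. The log2 fold change was 0.34 (SE 0.38, 95% interval -0.40 to 1.07, DESeq2 adjusted p = 0.587), and it was -0.04 without DMM 2. Vpreb2, the copy of Vpreb1, was much scarcer, with 8.56 to 18.1 normalised counts in naive and 11.7 to 30.7 in DMM libraries and an estimate of 0.53 in log2 units (DESeq2 adjusted p = 0.472). Adding the counts of Vpreb2 to those of Vpreb1 gave 0.45 in log2 units (DESeq2 adjusted p = 0.44). The sum is the same however reads were divided between the pair. It cannot show what Vpreb1 alone would give under another division.

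Dntt, which marks the pro-B stage, had the highest coefficient of variation of the 9 genes in the DMM group, at 59.1%. Its normalised counts were 190.8, 372.5, 204.4 and 178.0 in naive libraries and 624.5, 156.95, 372.1 and 234.7 in DMM libraries. The highest and the lowest of the 8 values both belonged to the DMM group, in DMM 1 and DMM 2, and naive 2 stood apart from the other naive libraries. Dntt had a log2 fold change of 0.56 (SE 0.49, 95% interval -0.40 to 1.51, DESeq2 adjusted p = 0.468).

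Rag1 showed 846.0, 1007.1, 754.5 and 500.0 normalised counts in naive libraries and 1451.3, 1955.4, 617.4 and 777.1 in DMM libraries. The values of DMM 1 and DMM 2 exceeded every naive value, while DMM 3 and DMM 4 fell inside the naive range. For Rag1, the log2 fold change was 0.63 (SE 0.42, 95% interval -0.20 to 1.45, DESeq2 adjusted p = 0.309). Rag2, transcribed from the other strand of the same locus, showed 65.1, 73.2, 68.5 and 45.35 normalised counts in naive and 103.7, 102.1, 57.6 and 85.7 in DMM libraries. All DMM libraries but DMM 3 exceeded the naive range, and the log2 fold change was 0.47 (SE 0.26, 95% interval -0.03 to 0.97, DESeq2 adjusted p = 0.189). Both recombinase genes passed the thresholds when DMM 3 was left out, Rag1 at 0.84 (DESeq2 adjusted p = 0.0189) and Rag2 at 0.63 (DESeq2 adjusted p = 0.0493), in a fit that called 7.23% of tested genes as higher.

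Il7r, the receptor chain for interleukin 7, had nearly the same mean in both groups. Normalised counts were 588.3, 400.4, 482.7 and 336.75 in naive and 481.8, 586.9, 265.9 and 469.3 in DMM libraries. The lowest value was that of DMM 3 and the highest that of naive 1, and the groups overlapped almost fully. The log2 fold change was -0.0060 (SE 0.24, DESeq2 adjusted p = 0.992). The 95% interval from 4 mice a group reached from -0.47 to 0.46, so changes within that range remain possible. Its sign turned with the scaling, at 0.14 under total count scaling. Il7r is also expressed by T cells and innate lymphoid cells, which these libraries do not resolve.

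Ebf1 was the only one of the 9 with groups that did not overlap, a pattern seen in 22.2% of all tested genes and, with DMM above naive, in 11.9%. Its normalised counts were 1408.8, 1239.9, 1258.6 and 1351.5 in naive and 2141.3, 1980.1, 1507.3 and 1446.75 in DMM libraries. The naive libraries were tightly grouped, and DMM 1 and DMM 2 lay well above DMM 3 and DMM 4. The mean was 1315 ± 79.5 in naive and 1769 ± 344 in the DMM group (SD over 4 mice each), a difference of 1.34-fold, with a log2 fold change of 0.43 (SE 0.15, 95% interval 0.14 to 0.71, DESeq2 adjusted p = 0.0198). The adjusted p thus passed and the size did not reach 1.5-fold, so the gene was not called. With no fold threshold, 11.4% of tested genes were higher in DMM, Ebf1 among them. Its adjusted p was above 0.05 without naive 2 (0.0701), naive 3 (0.0718), DMM 1 (0.106) or DMM 2 (0.086) in the same DESeq2 test.

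Pax5, which encodes the commitment factor, overlapped between the groups. It was measured at 1042.1, 1096.2, 899.0 and 596.4 normalised counts in naive and at 1317.8, 1715.7, 712.9 and 635.4 in DMM libraries. DMM 1 and DMM 2 exceeded the naive range, and DMM 3 and DMM 4 lay in its lower part. Between the groups, Pax5 had a log2 fold change of 0.27 (SE 0.29, 95% interval -0.30 to 0.84, DESeq2 adjusted p = 0.572), and without DMM 2 it was -0.03.

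**Figure D2:**
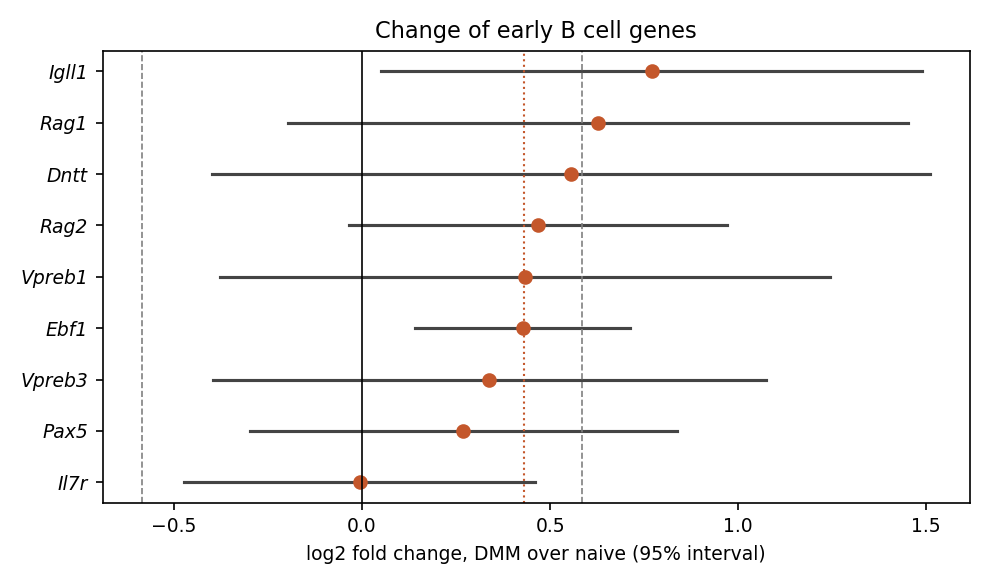
Log2 fold change of each gene, DMM over naive (x axis), with genes ordered by size on the y axis. Points give the DESeq2 estimate and lines its 95% interval from 4 libraries per group, dashed lines mark 1.5-fold in each direction and the dotted line the median of the 9 genes (0.43). The intervals of Igll1 (0.05 to 1.49) and Ebf1 (0.14 to 0.71) lie above 0, and those of the other 7 genes include it.

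Most of these genes varied more between mice of 1 group than genes in general did. The coefficient of variation (SD as a percentage of the mean) was 38.6% to 44.2% among naive libraries for Vpreb1, Vpreb3, Igll1 and Dntt, compared with a median of 15.4% over 17760 tested genes. In the DMM group, the same 4 genes ranged from 48.4% to 59.1%, against a median of 15.3%. Ebf1 was the least variable, at 6.05% in naive libraries, below the median of all genes, and 19.5% in DMM libraries, above it. The ratio of the highest to the lowest library in the DMM group was 4.21 for Vpreb1, 3.98 for Dntt and 3.17 for Rag1, and 1.48 for Ebf1. Counting error is part of the spread of the scarcer genes, and its share was not separated here. Each gene was also compared with the summed level of the cartilage list (log2 values, 8 libraries, shared size factors). After group means were subtracted, Pearson r lay between -0.86 (Vpreb3) and -0.65 (Ebf1) for all genes but Dntt (-0.25). Without that subtraction, it ran from -0.51 for Il7r to 0.23 for Ebf1. The part of the cartilage level in the spread was not tested.

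Levels of different genes were compared per kilobase of the longest annotated transcript. Mean normalised counts per kilobase over the 8 libraries were 258 for Ebf1, 218 for Vpreb3, 161 for Igll1, 150 for Rag1, 137 for Dntt, 128 for Il7r, 125 for Pax5, 87.2 for Vpreb1 and 21.9 for Rag2. Neighbours in this order were mostly not separable. Ebf1 lay above Vpreb3 in 5 of 8 libraries, Rag1 above Dntt in 4 and Dntt above Il7r in 3, and Vpreb1 lay above Rag2 in 8 of 8. Rag2 was thus below its nearest neighbour per length in each of the 8 libraries, although its product works together with that of Rag1.

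The 9 genes did not vary as 1 block across mice. On log2(normalised count + 1) values of the 8 libraries, which share their size factors, Rag1, Vpreb3 and Pax5 varied closely together, with Pearson r of 0.93 for Vpreb3 with Rag1, 0.94 for Rag1 with Pax5 and 0.95 for Vpreb3 with Pax5. After group means were subtracted, these were 0.94, 0.97 and 0.95. Rag2 followed Rag1 with r of 0.9. A different trio was formed by Vpreb1, Igll1 and Dntt, with r of 0.85 for Vpreb1 with Igll1, 0.82 for Igll1 with Dntt and 0.76 for Vpreb1 with Dntt. Across the trios, Dntt gave low values, with r of 0.11 with Pax5, 0.13 with Vpreb3 and 0.16 with Rag1. Vpreb1 and Igll1 were intermediate, with r of 0.59 to 0.67 for Vpreb1 and 0.48 to 0.53 for Igll1 with the same 3 genes.

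**Figure D3:**
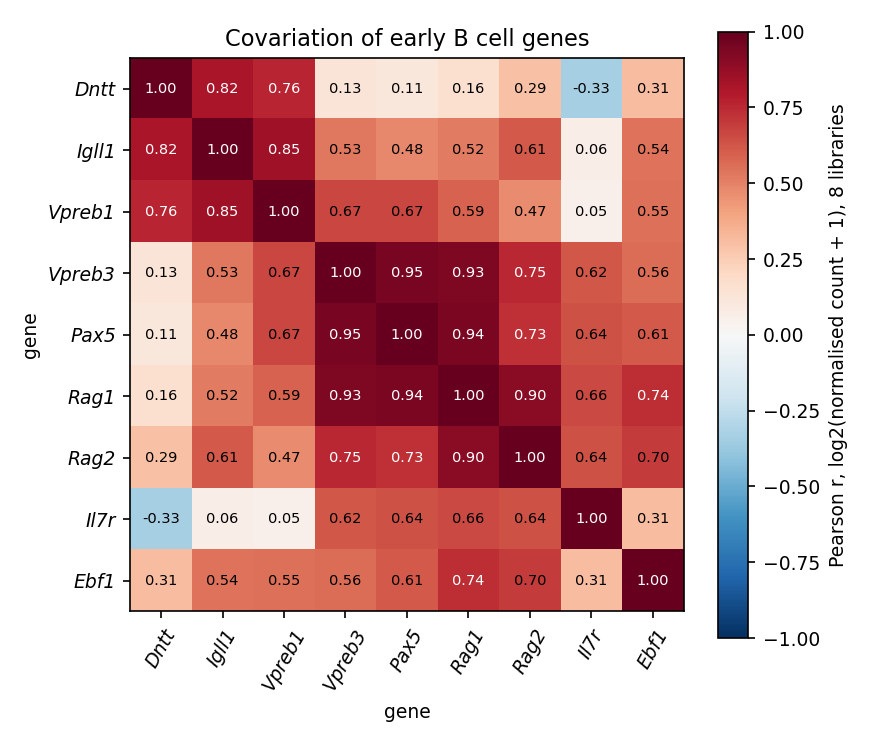
Pearson r between each pair of the 9 genes (both axes list the genes), from log2(normalised count + 1) in 8 libraries, with red for positive and blue for negative values. Vpreb3, Pax5, Rag1 and Rag2 share a block of high values, with 0.95 for Vpreb3 and Pax5, while the r of Dntt with Pax5 is 0.11.

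DMM 2 had the highest normalised counts of all 8 libraries for Vpreb3, Rag1 and Pax5 and the lowest for Dntt. The ratio of Dntt to Rag1 counts was 0.0803 in DMM 2, compared with 0.43, 0.603 and 0.302 in DMM 1, 3 and 4 and with 0.226, 0.37, 0.271 and 0.356 in naive 1 to 4. In the same way the ratio of Igll1 to Vpreb3 was 0.379 in DMM 2 and 1.49, 1.79 and 1.05 in DMM 1, 3 and 4, whereas naive libraries lay between 0.631 and 0.887. DMM 2 was therefore the lowest and the other DMM libraries were the highest of the 8 for Igll1 relative to Vpreb3. The ratios within the recombinase pair were steadier, with Rag2 at 0.0727 to 0.0908 of Rag1 in naive and 0.0522 to 0.11 in DMM libraries.

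Partners of the pre-B cell receptor were counted next. For this and the following lists, DESeq2 called 13.7% of all tested genes and gave 33.0% an unadjusted p under 0.05. None of 12 listed signalling genes was called by DESeq2, edgeR or limma-voom, 4 had an unadjusted p under 0.05 in DESeq2, and the median log2 fold change was -0.08. The most abundant were Ptprc, which encodes the phosphatase CD45, at -0.24 (DESeq2 adjusted p = 0.0606), and the kinase gene Syk at -0.09 (DESeq2 adjusted p = 0.808). Cd79a, which encodes a signalling chain of the receptor and was named after its values were seen, had 396.8 to 719.7 normalised counts in naive and 457.6 to 1291.1 in DMM libraries. As for Pax5, its highest library was DMM 2.

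Among 15 transcription factors of the B lineage, 1 was called, as higher in DMM, like 7.75% of all tested genes. This was Lef1, a Wnt pathway factor of pro-B cells that is also expressed in T cells and other tissues. It had 287.6, 327.3, 233.3 and 234.7 normalised counts in naive and 709.1, 420.3, 506.3 and 509.0 in DMM libraries. The groups did not overlap, as in 22.2% of all tested genes, and Lef1 rose by 0.99 on the log2 scale (SE 0.19, DESeq2 adjusted p = 6.17e-06). The median over the list was 0.24, and 8 of the 15 had an unadjusted p under 0.05. Myb and Ikzf1, the most abundant, were at -0.34 (DESeq2 adjusted p = 0.0536) and -0.51 (DESeq2 adjusted p = 0.00784), both under 1.5-fold. Lef1 varied with Igll1 (r of 0.8 over the 8 libraries) more than with Pax5 (0.26).

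The list of V(D)J joining and repair holds the factors that act beside and after RAG1 and RAG2. In it, 1 of 12 genes was called, compared with 13.7% of all tested genes, and the median log2 fold change was -0.02. Hmgb2, a DNA-bending cofactor of RAG cleavage that is also abundant in dividing cells, was lower in DMM, with a log2 fold change of -0.91 and a DESeq2 adjusted p of 8.72e-05. Its normalised counts were 3956 to 6117.1 in naive and 1959.6 to 3345.7 in DMM libraries, with no overlap, as in 22.2% of all tested genes. Its paralog Hmgb1 was at -0.33 (DESeq2 adjusted p = 0.0667). Of 12 tested genes of interleukin 7 and niche signalling, none was called by DESeq2, edgeR or limma-voom, 3 had an unadjusted p under 0.05 in DESeq2, and the median was -0.12. Cxcl12, the chemokine with which marrow stroma retains B progenitors, was at 0.05 (DESeq2 adjusted p = 0.895) and the kinase gene Jak1 at -0.13 (DESeq2 adjusted p = 0.431).

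Genes of other blood cells and of stroma were set beside these values. A mature B cell list of 12 genes had no call in DESeq2, edgeR or limma-voom, 1 unadjusted p under 0.05 and a median log2 fold change of 0.36, close to the 0.43 of the 9 genes. Its most abundant members, Cd37 and Cd72, were at -0.16 (DESeq2 adjusted p = 0.627) and 0.29 (DESeq2 adjusted p = 0.488). Across libraries, the summed level of this list had r of 0.98 with Pax5, 0.96 with Vpreb3 and 0.94 with Rag1, but 0.42 with Igll1 and 0.023 with Dntt (log2 values, 8 libraries, shared size factors). In the plasma cell list, 4 of 9 tested genes were called, 3 of them higher in DMM. Jchain, which links secreted immunoglobulin units, rose from 702.9 ± 121.0 to 2074.7 ± 604.5 normalised counts (SD, n = 4 each), or by 1.56 in log2 units (DESeq2 adjusted p = 5.6e-12), and Tent5c was lower at -0.83 (DESeq2 adjusted p = 0.00367).

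T cell genes bear on Rag1, Rag2, Dntt and Il7r, which developing T cells also use. Of 13 tested T cell genes, 2 were called higher and 1 lower in DMM, with a median log2 fold change of 0.10. Over all tested genes, 7.75% were called higher and 5.92% lower. Tcf7 was higher at 0.74 (DESeq2 adjusted p = 0.000614) and Cd28 at 0.90 (DESeq2 adjusted p = 0.00348). Cd3d was lower at -0.88 (DESeq2 adjusted p = 0.00915), a call lost without naive 3 (-0.76, DESeq2 adjusted p = 0.0502). Cd3e (-0.34, DESeq2 adjusted p = 0.482), Cd3g (0.34, DESeq2 adjusted p = 0.411) and Cd247 (-0.05, DESeq2 adjusted p = 0.936) were not called. Cd3d had 275.8 to 991 normalised counts per library, compared with 22.2 to 49.9 for Cd3e and 26.8 to 44.8 for Cd3g. How far Cd3d followed T cells was not tested. Cd28, Cd3e, Cd3g and Cd247 were named after their values were seen. Ptcra, which encodes the pre-T cell receptor chain that marks immature T cells in the thymus and was named after its values were seen, lay between 1.76 and 7.46 normalised counts per library and was given no adjusted p.

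The neutrophil list moved the other way, with 13 of 15 genes called lower in DMM and a median log2 fold change of -0.88. S100a9, an abundant calcium-binding protein gene of neutrophils, fell by 0.84 in log2 units (DESeq2 adjusted p = 0.00244) and Ngp, a granule protein gene, by 0.88 (DESeq2 adjusted p = 0.00111). Of 11 erythroid genes, 9 were called lower, with a median of -0.96. Hba-a2 fell by 1.11 (DESeq2 adjusted p = 0.0202), and Hbb-bs was at -0.95 (DESeq2 adjusted p = 0.0928). The call of Hba-a2 held in 3 of the 8 fits that left out 1 library and was lost without naive 1, naive 2, DMM 1, DMM 2 or DMM 4 (DESeq2 adjusted p of 0.0648 to 0.104). The medians of these marrow lineages therefore did not share 1 direction, being above 0 for the 9 early B cell genes and the mature B cell list and below 0 for the neutrophil and erythroid lists.

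**Figure D4:**
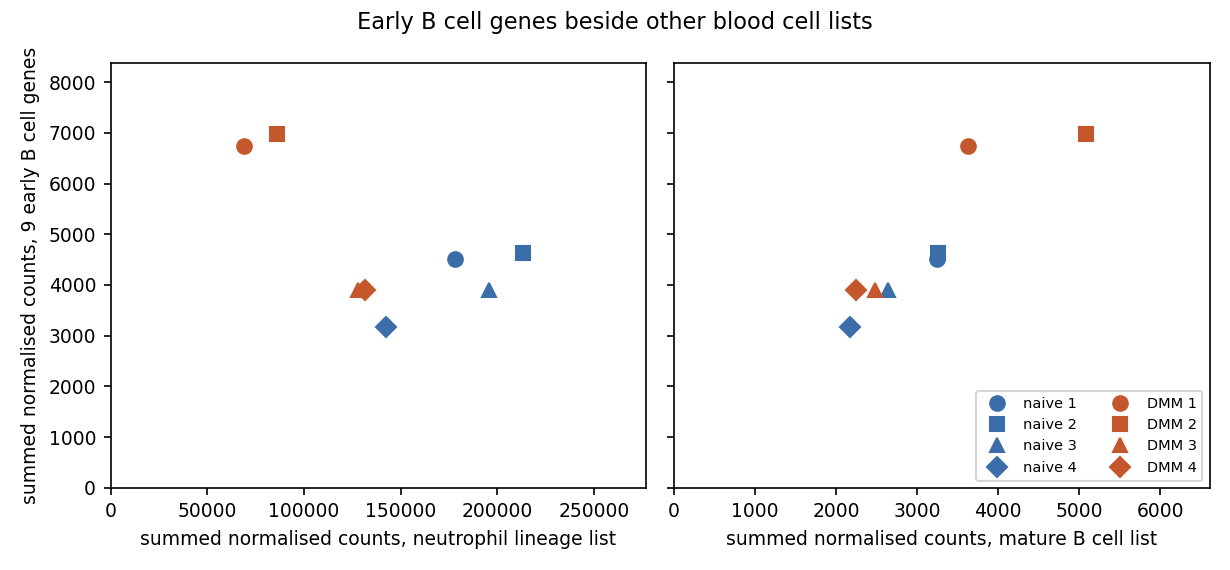
Summed normalised counts of the 9 early B cell genes (y axis) against those of the neutrophil lineage list (left x axis) and the mature B cell list (right x axis), 1 point per library, naive in blue and DMM in orange. DMM 1 and DMM 2 have the highest sums of the 9 genes (6749.7 and 6981) and the lowest neutrophil sums (68757.4 and 86003.5), and the sums of the 9 genes and of the mature B cell list run from lowest in naive 4 to highest in DMM 2.

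The summed normalised counts of the 9 genes were 4506.1, 4637.7, 3904.3 and 3163.4 in naive and 6749.7, 6981, 3893.8 and 3899.8 in DMM libraries. DMM 1 and DMM 2 stood above all naive libraries, and DMM 3 and DMM 4 lay within the naive range. Ebf1, Pax5 and Rag1 gave most of these sums. Neutrophil sums were 142571 to 213085 in naive libraries, 68757.4 and 86003.5 in DMM 1 and DMM 2, and 127633 and 131495 in DMM 3 and DMM 4. The same pair of DMM libraries was thus highest for the sum of the 9 genes and lowest for the neutrophil list. Single genes could differ from the sum. DMM 2 was the lowest of the 8 libraries for Dntt and ranked 5 for Igll1, and naive 1 was the highest for Il7r. The part of the neutrophil level in the early B cell values was not tested. Under scaling to the neutrophil list, an alternative that moved the median log2 fold change of all tested genes to 0.92, all 9 genes were called higher, with log2 fold changes from 0.99 to 1.90, in a fit that called 56.8% of genes as higher.

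Ebf1 followed the neutrophil list inversely and more closely than any other of the 9 did, with r of -0.97 over the 8 libraries and -0.92 after group means were subtracted. The other 8 genes had r between -0.59 and -0.14 with that list. With a list of Ebf paralogs, adipocyte and marrow stromal genes, Ebf1 had r of 0.86, and 0.66 after group means were subtracted. With the mature B cell list, its r was 0.64, and 0.72 after group means were subtracted. In the list of Ebf paralogs, adipocyte and marrow stromal genes, 3 of 11 were called, all higher in DMM, and the median log2 fold change was 0.53. Pdgfra and Pdgfrb, receptor genes of mesenchymal cells, rose by 0.62 (DESeq2 adjusted p = 0.00183) and 0.68 (DESeq2 adjusted p = 0.000132). Ebf2, a paralog of Ebf1 in adipocyte precursors named after its values were seen, rose by 1.05 (DESeq2 adjusted p = 0.0268). The more abundant paralog Ebf3 was not called, at 0.22 (DESeq2 adjusted p = 0.421). The genes not called ran from Esm1 at -0.09 (DESeq2 adjusted p = 0.84) to Plin1 at 1.47 (DESeq2 adjusted p = 0.112). The call of Ebf2 was lost without naive 1, naive 2, naive 3, DMM 1 or DMM 3 (DESeq2 adjusted p of 0.0543 to 0.17), and Pdgfra was under 1.5-fold without naive 1, DMM 1 or DMM 3 (0.53 to 0.57). The part of B cells and of stromal cells in the level of Ebf1 was not tested. In the cartilage list, 5 of 10 genes were called, all higher in DMM, with Col2a1, the collagen of hyaline cartilage, at 1.41 (DESeq2 adjusted p = 0.00703) and Prg4, which encodes lubricin, at -0.54 (DESeq2 adjusted p = 0.407).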

How the data were processed

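The deposited table holds estimated counts per gene, which the authors made by trimming reads (Trimmomatic 0.39), pseudo-aligning them (Kallisto 0.46.1) and summing transcripts to genes (Tximport 1.14.0). The methods of the study name mouse GRCm38 whereas the submitters' processing notes list a human build, so the build of the table is uncertain. The labels and the methods also name different library kits. Symbols and coordinates were looked up by Ensembl identifier in GENCODE vM21, with a symbol for 48855 of 50462 identifiers. Identifiers without a symbol held 13.4% of counts. Counts were rounded to whole numbers.

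All 8 libraries were fitted with DESeq2 1.42.0 in R 4.3.3 (size factors by median of ratios, Wald test, default filters, no shrinkage, no covariates), and the code was tested on simulated data. Normalised counts are counts divided by the size factor. Shares of counts were compared by two-sided exact permutation over 70 assignments. Alternatives were edgeR 4.0.16, limma-voom (limma 3.58.1), other scalings and filters, no fold threshold, a replicate block, summing Vpreb1 with Vpreb2 and leaving out each library. A count of genes called higher was added after seeing the data. The DESeq2 p-values weigh a difference between the groups against the spread between mice, which the fit estimates with information from all genes.

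The 9 genes and all lists were chosen with earlier results of these data known. Named genes were the 9, the called and the 2 most abundant genes of the 4 B lineage lists, the 2 most abundant of the other lists, and the 5 genes most like the mean of Vpreb1, Vpreb3 and Igll1 among those averaging 20 or more normalised counts. Other genes, such as Vpreb2, were chosen after their values were seen. Some genes that the rule names are not reported here. Of the 12 listed erythroid genes, 1 had no match by symbol.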

Additional observations from a re-analysis of the deposited data

Results flagged for a closer look

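Of 28 groups of 4 values tested (normalised counts of the 9 genes and library measures), 2 held a single library far from the other 3 by Dixon's test, where chance gives about 1 in 20. The normalised count of Dntt was 372.5 in naive 2 and 178.0 to 204.4 in the other naive libraries. Without naive 2, the log2 fold change of Dntt was 0.86 (DESeq2 adjusted p = 0.254), compared with 0.56 with all libraries. In DMM 3 the erythroid list held 1.345% of counts, compared with 0.6415% to 0.7142% for the rest of its group. DMM 3 also had the lowest Il7r count of the 8 libraries, and Rag1 and Rag2 passed the thresholds only without it among the fits that left out 1 library.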

How the results depend on the processing

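The count of 0 called among the 9 genes was also found with edgeR, limma-voom, TMM factors, both other count filters, the replicate block and the sum of Vpreb1 and Vpreb2. It was 1 under total count scaling (Igll1), 1 with no fold threshold (Ebf1), 9 under scaling to the neutrophil list, and 0 to 2 across the fits that left out 1 library. No gene of the 9 was called lower in any of these fits. Over all genes, 2429 were called (1377 higher, 1052 lower), 2519 (2030 and 489) under total count scaling, 11983 (11964 and 19) under neutrophil scaling and 4010 with no fold threshold. For the single genes, 139 values under the alternatives kept direction and side of the threshold, 13 newly passed it in the same direction and 10 turned sign. Il7r under neutrophil scaling turned sign and also passed, and is counted among the 10.

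The sign turned for Vpreb1 without DMM 1 (-0.0047), Vpreb3 without DMM 2 (-0.04) and Pax5 without DMM 2 (-0.03). Il7r, at -0.0060 with all libraries, turned with edgeR (0.0065), TMM factors (0.02), total count scaling (0.14), neutrophil scaling (0.99), and without naive 1 (0.15), naive 3 (0.03) or DMM 3 (0.18). Across the fits that left out 1 library, the log2 fold change ranged from -0.0047 to 0.74 for Vpreb1, -0.04 to 0.58 for Vpreb3, -0.03 to 0.46 for Pax5 and -0.16 to 0.18 for Il7r. The cause was not tested. Same-numbered libraries did not deviate together (correlations of 0.0498, 0.058, -0.119 and 0.117), so the numbers do not pair them. With the replicate block, 2081 genes were called, 0 of the 9 among them.

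With 4 mice a group, the 95% intervals were wide, such as -0.38 to 1.25 for Vpreb1, and changes anywhere inside them remain possible. Only the unadjusted intervals of Igll1 and Ebf1 left out 0.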

Other observations

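Genes whose levels were among the most like the mean of Vpreb1, Vpreb3 and Igll1 across the 8 libraries, among 15952 genes compared, were 1810049J17Rik (r of 0.977), Sbf1 (0.96), Gm22442 (0.954) and Ubl7 (0.954). None of these 4 was called between the groups. Mzb1, a gene of plasma cells and marginal zone B cells named after its value was seen, had r of 0.949. These are descriptions over 8 libraries that share size factors, picked as the highest of many.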
